A study of Mus musculus with 12 samples.

Results

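Tpt1, Naca, Btf3, Rack1, Nsa2, Npm1, Hnrnpa1 and Nap1l1 are 8 mRNAs long listed with the TOP mRNAs although they code for neither ribosomal proteins nor initiation or elongation factors. They were taken as a list of gene symbols, by a rule that uses no measured value. The list was, however, chosen with earlier results of these data known. All 8 had a record and passed the filter of at least 10 expected counts in every library, which 15002 of 55073 genes passed. RNA-seq was read from 6 libraries, each of 1 numbered mouse, that are taken to be cortex because every labelled sample is cortex, while the files do not name a tissue. The study sequenced rRNA-depleted RNA of posterior cortex from 3 Larp1 WT and 3 Larp1 cKO male C57BL/6J mice, and gives no age for them. The WT mice carry the Nestin-Cre transgene and the cKO mice carry it together with Larp1-flox/flox, so Cre is present in every mouse. The Nestin promoter drives Cre in precursors of neurons and of some glia, and cells of other origin in the tissue keep Larp1. The genotype behind each mouse number is not known here, so values are given for each library with no group, no mean and no test between groups.

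TOP mRNAs begin with a C at the cap, followed by a run of pyrimidines, the 5′ terminal oligopyrimidine motif. Growth signals through mTORC1 raise the translation of these mRNAs, and the RNA-binding protein Larp1 holds the cap and the first bases, represses their translation and stabilises them. Most code for ribosomal proteins and translation factors. The 8 mRNAs described here code for a growth-related protein, chaperones of new proteins and of histones, a scaffold on the small ribosomal subunit, a nucleolar protein, a factor of large-subunit assembly and a splicing regulator.

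The first 30 bases of annotated transcripts are shown first, because the start is the feature that defines a TOP mRNA. They were read from GENCODE M21 (GRCm38), 5′ to 3′, and capitals mark the first run of a C followed by at least 4 pyrimidines. The isoform with the highest median TPM (RSEM's length-normalized level, scaled to the same total in every library) began with that motif in Rack1 and Hnrnpa1, 2 of the 8, beside 2.35% of 13618 detected protein-coding genes.
Rack1-201, chr11:48800360-48800389, plus strand: CTTTTTCTCCacagggtcgtggtggcagcc
Hnrnpa1-202, chr15:103240454-103240483, plus strand: CTTTCTgctctttgacgctgccgaggaagc

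Tpt1 and Nap1l1 began with the motif only in isoforms of lower level, with a median TPM of 0.42 for Tpt1-206, an annotated retained intron, and of 2.76 for the coding Nap1l1-207. With any annotated isoform allowed, 4 of the 8 had the motif at a start, beside 10.7% of genes. The start of Tpt1-206 lies 238 bases downstream of the start of the coding isoform Tpt1-201, inside its first exon (75845093 to 75845456 on chromosome 14). The start of Nap1l1-207 lies 15 bases upstream of that of Nap1l1-202.
Tpt1-206, chr14:75845331-75845360, plus strand: CTTTTCCgcccgctcccccctccccccgcg
Tpt1-201, chr14:75845093-75845122, plus strand: cccagcatgccccgggcgcactatccgcac
Tpt1-204, chr14:75845900-75845929, plus strand: gcgccatCCTCTTTCCgggcgaacggggac
Nap1l1-207, chr10:111473227-111473256, plus strand: CTTTTTTagcgccatctgctcgcggcgccg
Nap1l1-202, chr10:111473242-111473271, plus strand: ctgctcgcggcgccgCCTCCTgctcctccc

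In Naca, Btf3 and Nsa2 a pyrimidine run lay inside the first 30 bases of an isoform but not at its first base. In Npm1 no isoform held one in that window. A run anywhere in the first 30 bases of the isoform with the highest median TPM was found in 6 of the 8, beside 32.1% of genes, so this looser reading, chosen after seeing the data, is a common one. The annotated start of a transcript is not a measured start, and no start was measured in these libraries.
Naca-201, chr10:128035575-128035604, plus strand: gcatgctggtcccgCCCTCTCggcgcccgg
Naca-202, chr10:128035635-128035664, plus strand: ctcgctcgttCTCTTTCTgccgccatcttg
Btf3-205, chr13:98316977-98317006, minus strand: gtggcgtcgcgttaCTTCCggcctccctct
Nsa2-203, chr13:97137823-97137852, minus strand: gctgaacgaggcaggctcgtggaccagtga
Nsa2-202, chr13:97137844-97137873, minus strand: gactaCCCTTTCCCgtcctgggctgaacga
Npm1-201, chr11:33163177-33163206, minus strand: ggcgcacgcgcaaaagcgcgactgtgcggg
Npm1-203, chr11:33163047-33163076, minus strand: ccttggcgtgattccgtcctgcgcgtctgt

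The annotated start also sets how much of each gene's RNA can be read as carrying the motif. Isoforms with the motif held 84.6% to 94.0% of Rack1 TPM over the 6 libraries and 69.8% to 76.3% of Hnrnpa1 TPM. They held 3.43% to 5.35% of Nap1l1 TPM and at most 0.531% of Tpt1 TPM. The first exons of Nap1l1-201, Nap1l1-202, Nap1l1-205 and Nap1l1-207 end at the same base, 111473351. Such shares rest on the model's division of reads among overlapping isoforms, whose error is not given. They do not measure how much RNA starts with the motif. In Npm1, Naca, Btf3 and Nsa2 no annotated isoform carried it at the first base. In the 7 members whose isoform of highest median TPM is coding, its annotated 5′ UTR ran from 60 bases in Hnrnpa1 to 227 in Npm1, with a median of 111, beside a median of 163 over 13121 detected genes.

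RefSeq promoter windows (GRCm38.p6) were matched for 7 of the 8 members, and Npm1 was not matched. The 100 bases centred on each RefSeq start were searched on the sense strand for the longest run of a C followed by pyrimidines (C or T). Rack1 held a run of 16 bases that begins 6 bases before the start. Runs of that length or longer were found in 2.21% of 32851 promoters, and the median longest run was 6. The longest run was 9 bases in Btf3, 8 in Nap1l1, 7 in Nsa2, 6 in Tpt1, 5 in Naca and 3 in Hnrnpa1, lengths reached by 20.1%, 28.8%, 40.7%, 58.1%, 77.1% and 98.8% of promoters. The RefSeq start of Nap1l1, at 111473227, is also the annotated start of Nap1l1-207, which begins with the motif. The RefSeq start lies upstream of the start of the isoform with the highest median TPM by 57 bases in Hnrnpa1, 74 in Nsa2, 229 in Naca and 644 in Tpt1, so the 50 bases after it do not reach that start, and the run printed for Hnrnpa1-202 is outside the window. The Rack1 window is printed because its run is the longest of the members, and it takes in the capitals shown for Rack1-201.
Rack1 promoter window, chr11:48800346-48800375, plus strand: ggaggccgCTCTTTCTTTTTCTCCacaggg

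By median TPM the order of the 8 mRNAs was Tpt1 (199.5), Naca (83.2), Nap1l1 (58.3), Hnrnpa1 (57.7), Btf3 (54.6), Rack1 (47.4), Npm1 (47.2) and Nsa2 (11.4). The range of Tpt1 did not overlap that of Naca, and the range of Npm1 did not overlap that of Nsa2. The ranges of all other neighbours in the order overlapped, while the range of Naca lay wholly above those of Btf3 and Npm1, which are not its neighbours, and Naca was above Nap1l1 in 6 of 6 libraries. All members but Nsa2 stood at or above percentile 92.2 of detected genes by median TPM, and Nsa2 stood at percentile 67.2. Expected counts behind these levels ran from 453 for Nsa2 in mouse 698 to 8056 for Tpt1 in mouse 687. For the lowest of them an exact Poisson interval at 95% covers 412 to 496, for counting error only.

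**Figure D1:**
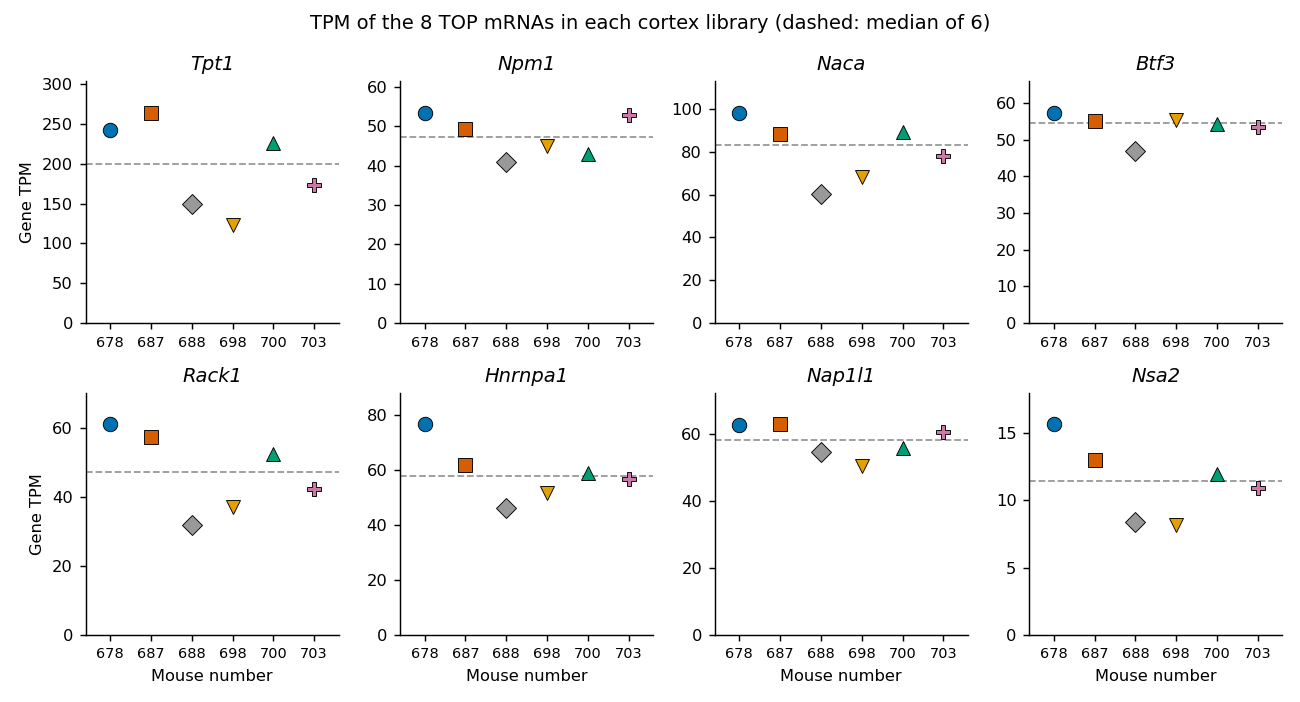
Gene TPM of each of the 8 mRNAs in the 6 libraries (x axis, mouse number; y axis, TPM from 0, a separate scale for each gene; dashed line, median of 6). Tpt1 runs from 122.5 to 264.2 while Btf3 stays between 47.0 and 57.3.

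Tpt1 codes for the translationally controlled tumour protein, an abundant protein tied to cell growth and survival. Its TPM was 242.3 in mouse 678, 264.2 in mouse 687, 149.3 in mouse 688, 122.5 in mouse 698, 226.0 in mouse 700 and 172.9 in mouse 703. Mice 678, 687 and 700 were high, and mouse 698 was lowest. The highest library was 2.16 times the lowest (counting interval at 95%, 2.07 to 2.25), the widest ratio among the 8. Tpt1 made up 27.9% to 40.5% of the summed TPM of the members. The gene lies on the plus strand of chromosome 14, from 75845093 to 75848525.

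Naca and Btf3 code for the alpha and beta subunits of the nascent polypeptide-associated complex, a dimer that sits at the ribosome's exit and shields new chains. Naca TPM was 98.3 in mouse 678, 88.3 in mouse 687, 60.4 in mouse 688, 68.3 in mouse 698, 89.1 in mouse 700 and 78.0 in mouse 703. Its highest library was 1.63 times its lowest (counting interval 1.54 to 1.72). Btf3 TPM was 57.3 in mouse 678, 54.9 in mouse 687, 47.0 in mouse 688, 55.3 in mouse 698, 54.3 in mouse 700 and 53.5 in mouse 703. Mouse 688 stood below the other 5 libraries, which lay within 53.5 to 57.3, and the ratio of highest to lowest was 1.22 (counting interval 1.14 to 1.31). The mRNAs for the paired subunits therefore had unequal spread. The Naca level over the Btf3 level was 1.71 in mouse 678, 1.61 in mouse 687, 1.29 in mouse 688, 1.24 in mouse 698, 1.64 in mouse 700 and 1.46 in mouse 703, a range of 1.39 times. Naca lies on chromosome 10 from 128035575 to 128048637 and Btf3 on chromosome 13 from 98309896 to 98317006.

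Rack1 codes for a WD-repeat scaffold on the small ribosomal subunit that also binds protein kinase C. Its TPM was 61.1 in mouse 678, 57.4 in mouse 687, 31.8 in mouse 688, 37.2 in mouse 698, 52.5 in mouse 700 and 42.2 in mouse 703. The same 3 libraries were high as for Tpt1, and mouse 688 was lowest. The ratio of highest to lowest was 1.93 (counting interval 1.81 to 2.04). The gene spans 48800332 to 48806434 on the plus strand of chromosome 11.

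Nsa2 codes for a nucleolar factor that is needed, as known from yeast, to assemble the large ribosomal subunit. Its TPM was 15.7 in mouse 678, 13.0 in mouse 687, 8.40 in mouse 688, 8.20 in mouse 698, 12 in mouse 700 and 10.9 in mouse 703. The ratio was 1.91 and, on the lowest counts of the 8, had the widest relative counting interval at 1.71 to 2.14. Npm1 codes for nucleophosmin, an abundant nucleolar chaperone of histones and ribosomal proteins. Its TPM was 53.5 in mouse 678, 49.3 in mouse 687, 40.9 in mouse 688, 45.1 in mouse 698, 43.0 in mouse 700 and 52.8 in mouse 703, with a ratio of 1.31 (counting interval 1.23 to 1.38). In TPM, mouse 703 was among the high libraries for Npm1 and mouse 700 among the low ones, unlike for Tpt1 and Rack1. This order depends on the unit. In TPM rescaled over nuclear protein-coding genes, Npm1 was at 189.5 in mouse 700 and at 183.2 in mouse 703. Npm1 lies on the minus strand of chromosome 11 from 33152287 to 33163206 and Nsa2 on the minus strand of chromosome 13 from 97129424 to 97137937.

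Hnrnpa1 codes for a nuclear RNA-binding protein that regulates splicing and shuttles to the cytoplasm. Its TPM was 76.7 in mouse 678, 61.7 in mouse 687, 46.2 in mouse 688, 51.8 in mouse 698, 58.9 in mouse 700 and 56.6 in mouse 703, with a ratio of 1.66 (counting interval 1.59 to 1.74). Mouse 678 stood highest, and the other 5 libraries lay between 46.2 and 61.7. Nap1l1 codes for a histone chaperone of the nucleosome assembly protein family. Its TPM was 62.8 in mouse 678, 63.0 in mouse 687, 54.8 in mouse 688, 50.7 in mouse 698, 56.01 in mouse 700 and 60.6 in mouse 703, with a ratio of 1.24 (counting interval 1.19 to 1.30). Hnrnpa1 lies on chromosome 15 from 103240432 to 103246692 and Nap1l1 on chromosome 10 from 111473223 to 111498150, both on the plus strand.

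The members therefore fell into a wide and a narrow set by spread. Tpt1, Rack1, Nsa2, Hnrnpa1 and Naca had a ratio over 1.5, 5 of the 8, and Npm1, Nap1l1 and Btf3 had 1.22 to 1.31. A ratio over 1.5 in TPM is common, at 47.6% of detected genes, and the median over all detected genes was 1.49. The 3 narrow members lay below that median in TPM. TPM depends on how much of a library other RNA takes, since nuclear protein-coding genes held 22.7% to 28.8% of all TPM. Counts were therefore also scaled with TMM, edgeR's trimmed mean of M-values, to CPM, a count per library size, where 28.2% of detected genes passed 1.5 and the same 5 members did. The median ratio over all detected genes was 1.31 on that scale, and Btf3 at 1.36 and Nap1l1 at 1.32 lay above it, while Npm1 at 1.29 lay below it.

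Spread at a given level was then compared across genes. For each detected gene the SD of log2(CPM + 1) over the 6 libraries was set against the running median SD of genes of like mean, and the 5% of genes furthest above it were called most variable. Tpt1, Rack1, Naca, Hnrnpa1 and Nsa2 were among them, 5 of the 8, at percentiles 98.4, 98.0, 96.0, 95.3 and 95.1 of the excess. Btf3, Nap1l1 and Npm1 stood at percentiles 81.8, 76.5 and 71.6. The last 3 of the 5 lie close to the limit of percentile 95. With a pseudocount of 0.25 in place of 1, only Tpt1 and Rack1 were called, and over log2(TPM + 1) Tpt1, Rack1 and Nsa2 were. Without mouse 678, 3 of the 8 were called (Tpt1, Naca and Rack1), and without mouse 688 also 3 (Tpt1, Rack1 and Nsa2). Tpt1 and Rack1 were called in all 12 settings tried.

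**Figure D2:**
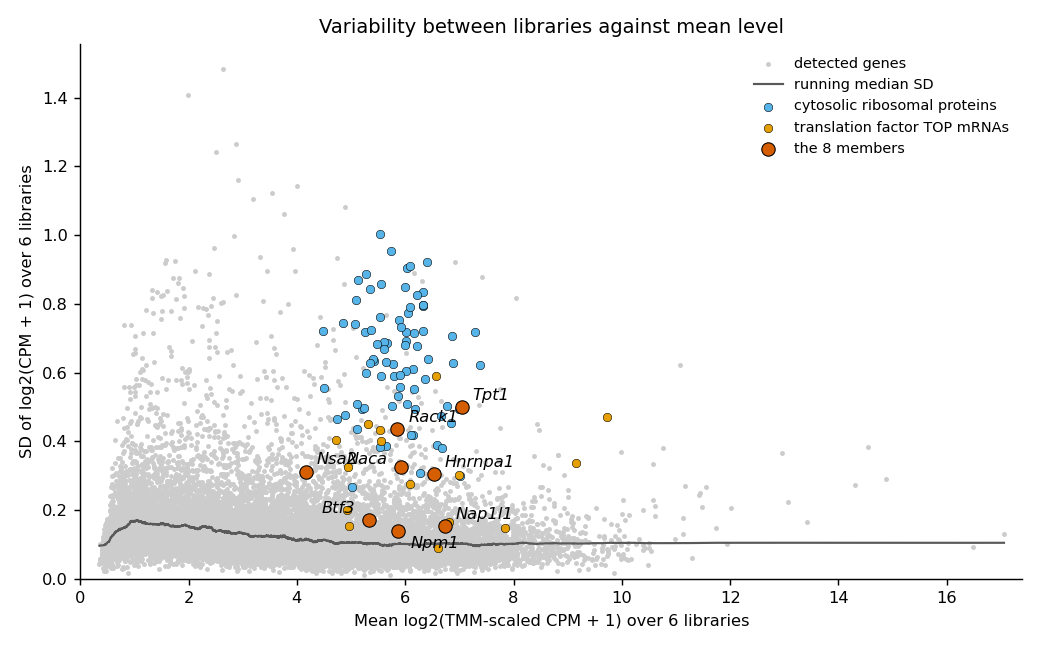
SD of log2(TMM-scaled CPM + 1) over the 6 libraries (y axis) against its mean (x axis) for 15002 detected genes (grey), with the running median SD as a line, 79 cytosolic ribosomal protein mRNAs in blue, 15 translation factor TOP mRNAs in yellow and the 8 members in orange. Tpt1 and Rack1 stand at percentiles 98.4 and 98.0 of the excess over the line, and Npm1, Nap1l1 and Btf3 lie nearer to it, at 71.6 to 81.8.

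The libraries with the highest values were the same for all 8 mRNAs once counts were scaled. In TPM, mice 678, 687 and 700 were the 3 highest libraries for Tpt1, Naca, Rack1, Hnrnpa1 and Nsa2, 5 of the 8, beside 2.54% of detected genes. This set was not fixed beforehand but picked as the commonest among these same members. The shares of detected genes given beside it are therefore a description and not a test. In TMM-scaled CPM the same 3 libraries were highest for all 8, beside 10.2% of detected genes, and in TPM rescaled over nuclear protein-coding genes again for all 8, beside 6.33%. The gap between the third and the fourth library was unequal among members. The third library was 1.77 times the fourth for Tpt1 (counting interval 1.70 to 1.84), 1.65 times for Rack1 and 1.31 to 1.39 times for Naca, Hnrnpa1 and Nsa2. It was 1.08 times for Nap1l1 (1.04 to 1.13). For Npm1 it was 1.04 times (0.984 to 1.10) and for Btf3 1.06 times (0.984 to 1.13), intervals that include 1, so the order of these 2 libraries was not resolved at this depth. Tpt1 CPM was 177.3, 183.3 and 178.1 in mice 678, 687 and 700, and 100.3, 87.7 and 99.2 in mice 688, 698 and 703.

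**Figure D3:**
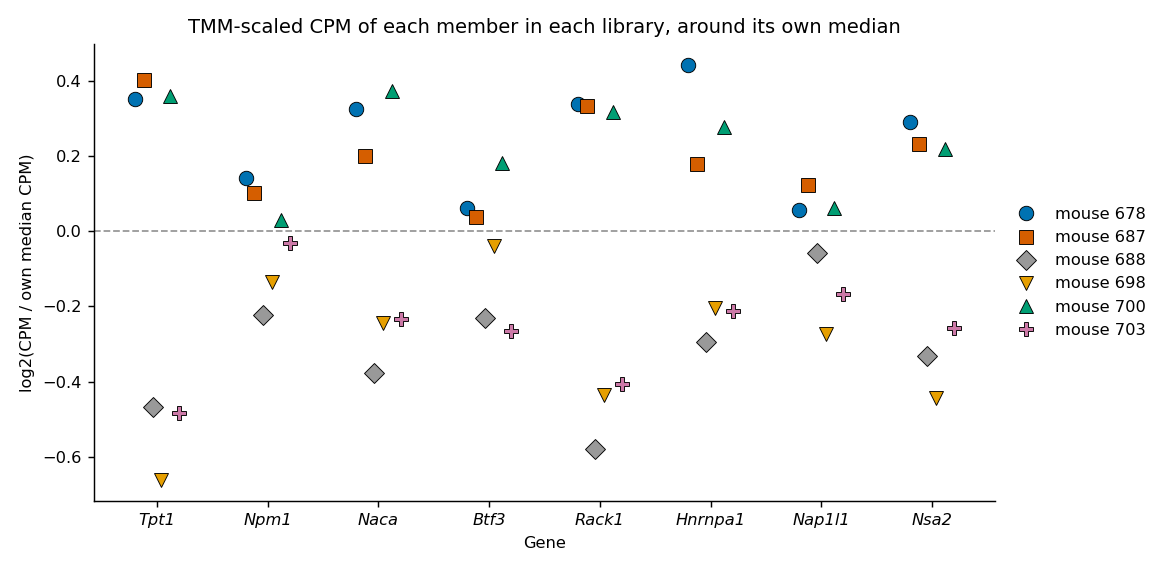
TMM-scaled CPM of each member in each library, as log2 of its ratio to the gene's own median over 6 libraries (y axis) by gene (x axis), with 1 symbol per mouse. The 3 highest of 6 libraries lie at or above 0 by construction, and for every gene these are mice 678, 687 and 700. The gap between the third and the fourth library is 1.77 times for Tpt1 and 1.04 times for Npm1 (counting interval 0.984 to 1.10).

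Values of the whole series were set beside this order. Larp1 TPM was 20.0 in mouse 678, 18.8 in mouse 687, 6.28 in mouse 688, 6.44 in mouse 698, 17.5 in mouse 700 and 7.32 in mouse 703, so Larp1 had the same 3 highest libraries, and no genotype was taken from it. The 8 immediate early genes, which follow neuronal activity, summed to 177.9 to 269.7 TPM in 5 libraries and to 630.7 in mouse 688, where Btf3, Rack1, Hnrnpa1, Naca and Npm1 were lowest. All 8 oligodendrocyte markers were detected and summed to between 502.0 and 805.3 TPM, with mice 678, 698 and 700 highest. The 8 excitatory neuron markers and the 8 inhibitory neuron markers were all detected, with sums of 923.6 to 1334 and 331.9 to 442 TPM. Of the inhibitory markers, Pvalb alone had mice 678, 687 and 700 as its 3 highest libraries in TPM, at 12.7 to 33.6. The 8 markers of striatum, hippocampus and cerebellum summed to 20.5 to 45.9 TPM with mouse 687 highest, while Pcp2 and Gabra6, markers of the cerebellum, were at or below 0.09 TPM in every library. Blood markers summed to 2.59 to 34.2 TPM, with mice 688 and 700 lowest. The part of these markers in the members' values was not tested. In bulk RNA, fewer cells of a type and less RNA per cell cannot be told apart. Library totals ran from 34689262 to 44463362 expected counts.

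The 8 mRNAs together held 0.0668% of TPM in mouse 678, 0.0652% in mouse 687, 0.0439% in mouse 688, 0.0439% in mouse 698, 0.0592% in mouse 700 and 0.0528% in mouse 703. The highest library was 1.52 times the lowest (counting interval 1.494 to 1.550). Without Tpt1 the ratio of the sum was 1.47. The 79 cytosolic ribosomal protein mRNAs together held 0.638% to 1.504% of TPM, a ratio of 2.36, and the 15 translation factor TOP mRNAs had a ratio of 1.67 in their sum.

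Other TOP mRNAs give the range in which the members sit. Of the 79 ribosomal protein mRNAs, 78 were most variable, their median ratio of highest to lowest library was 2.43, and all 79 passed 1.5. Of the 15 translation factor TOP mRNAs, 9 were most variable and their median ratio was 1.62, close to the members' median of 1.64. Eef1a1, the elongation factor with the highest level in that list, ran from 404.4 to 766.9 TPM, a ratio of 1.90, and Eef1g had the largest excess at a ratio of 2.24. The other 7 most variable of the list were Eef1b2, Eef2, Eif3e, Eif3f, Eif3h, Eif3k and Eif4b, with ratios of 1.60 to 2.03. In TMM-scaled CPM the 3 highest libraries were mice 678, 687 and 700 for 79 of 79 ribosomal protein mRNAs and for 14 of 15 translation factors, with Eif3a the exception. That set was found in 10.2% of detected genes. These lists were chosen with earlier results known, and no test was made between them.

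Members were then set beside genes of the same protein families or the same complexes that are not counted as TOP mRNAs. Of 55 such genes detected, 1 was most variable (Gnb4). That call takes the top 5% of detected genes by definition, so lists this short would hold few or none in any case. A ratio of 1.5 was passed by 11 of the 55, beside 47.6% of detected genes. The median ratio of the 55 was 1.40, beside 1.49 over all detected genes. In TMM-scaled CPM, 9 of the 55 had mice 678, 687 and 700 as their 3 highest libraries, beside 10.2% of detected genes. In TPM none of the 55 did, beside 2.54% of detected genes. No test was made between these genes and the members.

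**Figure D4:**
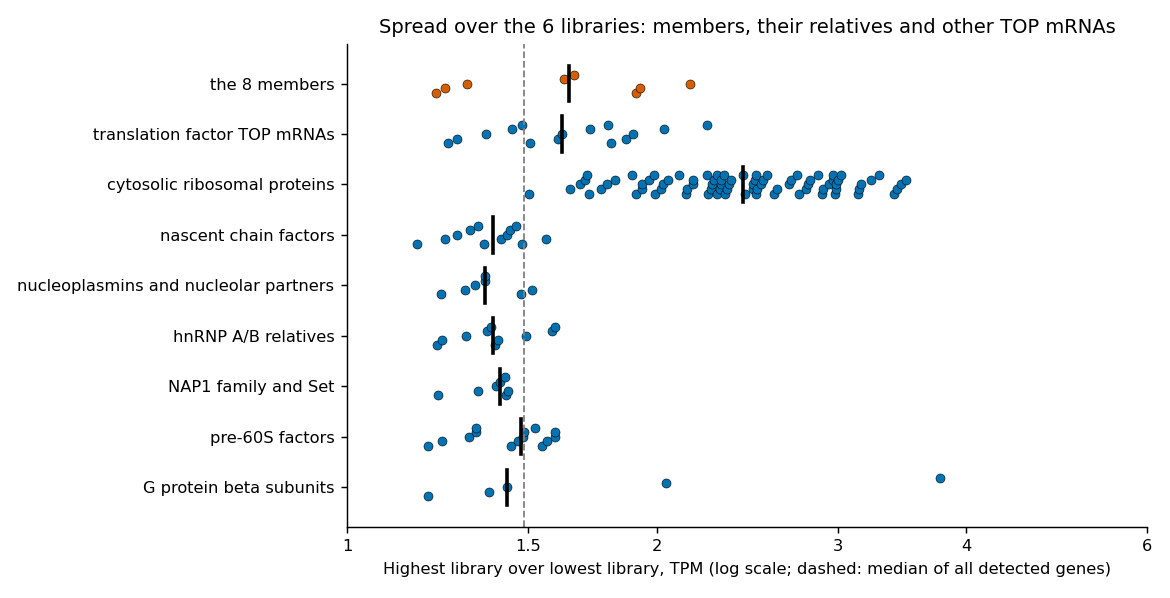
Highest over lowest TPM among the 6 libraries (x axis, log scale) for each detected gene of the 8 members (orange), of other TOP mRNAs and of relatives and partners (blue), by list (y axis), with each list's median as a black bar and the median of all detected genes, 1.49, dashed. Ribosomal protein mRNAs have a median of 2.43 and the members one of 1.64, and every hnRNP, NAP1 family and large-subunit assembly gene lies at or below 1.59.

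Among 12 other factors that meet nascent chains, none was most variable and 1 passed 1.5, beside 47.6% of detected genes. Srp14, of the signal recognition particle, had the highest level at 34.9 to 45.9 TPM and a ratio of 1.32, and Naa10, the catalytic subunit of an N-terminal acetyltransferase, had the largest excess at a ratio of 1.48. Btf3l4, a close relative of Btf3, was read at 21.4 to 30.8 TPM. The level of Naca over that of Btf3l4 ranged from 2.53 to 4.16, and that of Btf3 over Btf3l4 from 1.74 to 2.54. In both ratios mice 678, 687 and 700 lay above the other libraries.

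Rack1 was compared with the beta subunits of G proteins, which share its WD-repeat fold. Gnb1 had the highest level, 227.4 to 312.7 TPM, with a ratio of 1.37. Rack1 over Gnb1 was 0.233 in mouse 678, 0.235 in mouse 687, 0.123 in mouse 688, 0.139 in mouse 698, 0.231 in mouse 700 and 0.135 in mouse 703. The ratio of the 2 levels within a library thus kept mice 678, 687 and 700 apart from the other 3, and scaling between libraries cannot alter it. Gnb4 was the 1 most variable gene of the 5 detected, at 6.05 to 22.8 TPM and a ratio of 3.77, with mice 687, 688 and 703 highest, another set than that of Rack1. Gnb3 was at or below 0.02 TPM in every library.

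None of the 7 nucleolar partners of Npm1 that were detected was most variable. Nucleolin (Ncl) had the highest level, at 33.3 to 45.3 TPM and a ratio of 1.36. Nhp2, a protein of the box H/ACA particles that guide pseudouridylation, had the largest excess at a ratio of 1.51. The Npm1 level over that of Ncl ranged from 1.07 to 1.34, a narrow band beside that of Rack1 over Gnb1. This ratio was highest in mouse 698, and mouse 678 (1.18) lay below mouse 703 (1.20). Mice 678, 687 and 700 were thus not the 3 highest libraries for Npm1 over Ncl. Npm3, a relative of Npm1, was read at 1.83 to 2.49 TPM and Npm2, the oocyte member of the family, at or below 0.18 TPM.

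None of the 14 other factors of large-subunit assembly beside Nsa2 was most variable, and 5 of them passed 1.5, beside 47.6% of detected genes. Ddx24, a helicase, had the highest level at 38.8 to 48.0 TPM with a ratio of 1.24, and Gnl2, a nucleolar GTPase, the largest excess at a ratio of 1.56. Nsa2 over Ebna1bp2, an assembly factor of similar level, was 0.956 in mouse 678, 1.04 in mouse 687, 0.780 in mouse 688, 0.701 in mouse 698, 1.08 in mouse 700 and 0.846 in mouse 703.

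None of the 10 relatives of Hnrnpa1 was most variable. Hnrnpk had the highest level at 115.0 to 182.0 TPM with a ratio of 1.58, and Ptbp2, a neuronal splicing repressor, the largest excess at a ratio of 1.59. Hnrnpa2b1, a close relative, ran from 67.1 to 82.0 TPM, a ratio of 1.22. The level of Hnrnpa1 over that of Hnrnpa2b1 was 0.995 in mouse 678, 0.895 in mouse 687, 0.653 in mouse 688, 0.700 in mouse 698, 0.878 in mouse 700 and 0.691 in mouse 703. Mice 678, 687 and 700 were again the 3 highest in this ratio within a library.

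None of the 7 NAP1 family and chaperone genes beside Nap1l1 was most variable, and none passed 1.5, beside 47.6% of detected genes. Nap1l5 had both the highest level and the largest excess, at 86.3 to 122.9 TPM and a ratio of 1.42. Nap1l4 was read at 22.5 to 27.6 TPM, and Nap1l1 over Nap1l4 ranged from 1.83 in mouse 698 to 2.76 in mouse 687. Nap1l1 over Set, the chaperone of the same family, ranged from 0.856 in mouse 688 to 1.11 in mouse 700. In both ratios mice 678, 687 and 700 lay above the other libraries.

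For each member the 3 detected protein-coding genes with the most similar profile were found by the root mean square difference of log2(TPM + 1) over the 6 libraries, each profile centred on its mean. The 3 nearest genes of Tpt1 were Rpl27, Rpl28 and Gm2000, at differences of 0.0727 to 0.0885, against a median of 0.460 over all genes. Those of Rack1 were Eif3f, Eef1a1 and Rpl10a, those of Nsa2 were Rpl15, Eef2 and Rpl7a, and those of Naca were Eif4b, Eif3k and Mrpl23. Those of Hnrnpa1 were Eif3g, Atp5k and Anapc13. Among the 50 nearest genes, ribosomal protein mRNAs numbered 32 for Tpt1, 22 for Rack1, 16 for Nsa2, 7 for Naca and 1 for Hnrnpa1, while they were 0.580% of the 13618 genes compared. For Npm1 (nearest Plppr3, Mrpl45 and Ndufs8), Btf3 (Ccdc124, Park7 and Hemk1) and Nap1l1 (Rps27l, Ddx52 and Npy5r) there were 0 among the 50. This difference grows with unequal spread as well as with an unequal order of libraries. All 79 ribosomal protein mRNAs had a TPM ratio over 1.5, while these 3 members had 1.22 to 1.31. The count of 0 therefore cannot tell whether their order of libraries differs from that of ribosomal protein mRNAs. Each profile has only 6 points from shared libraries, and genes with flat profiles are close to many others.

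Isoforms were read next, since a gene's TPM sums transcripts that need not all be coding. Coding isoforms held 97.0% or more of TPM in each library for Naca, Npm1, Btf3, Nap1l1 and Nsa2, 84.6% to 94.0% for Rack1 and 80.8% to 90.2% for Hnrnpa1. In Tpt1 they held 29.7% to 44.3%. Tpt1-204, a processed transcript of 661 bases with no annotated coding sequence, was read at 111.1 TPM in mouse 678, 149.4 in mouse 687, 81.5 in mouse 688, 55.4 in mouse 698, 118.7 in mouse 700 and 99.7 in mouse 703. The coding Tpt1-201, of 1169 bases, was read at 102.9, 84.0, 47.3, 54.2, 75.9 and 51.3 TPM in the same order of mice. Mice 678, 687 and 700 were the 3 highest for each of these isoforms, and their ratio of highest to lowest was 2.70 and 2.18. Of the exonic bases of Tpt1-204, 613 (92.7%) are also exonic in Tpt1-201, so the division of reads between them is an estimate of the model, and its error is not given in the files.

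**Figure D5:**
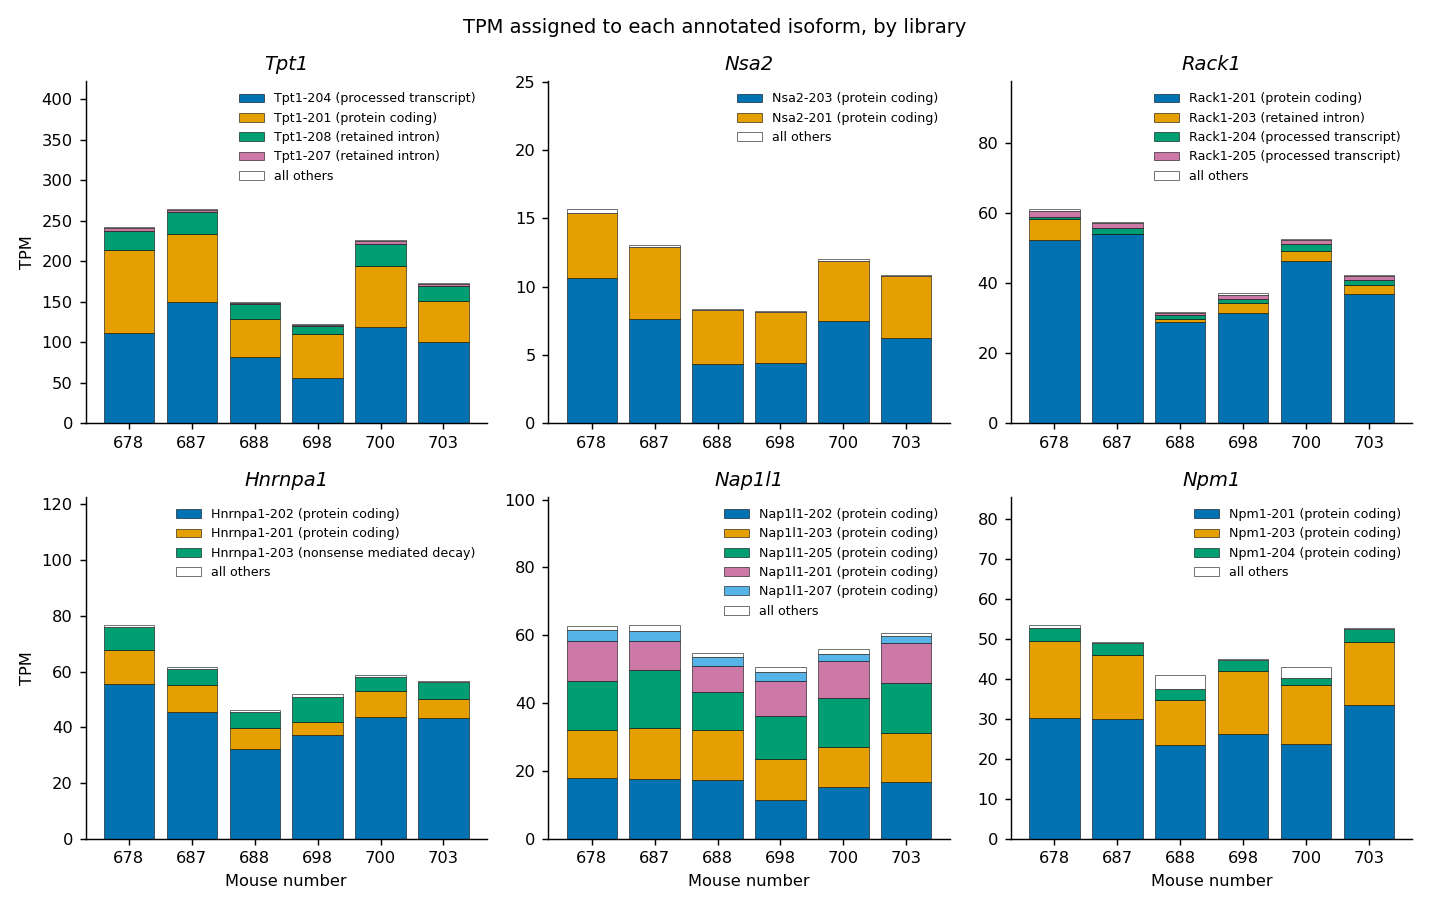
TPM of annotated isoforms stacked by library (x axis, mouse number; y axis, TPM from 0) for 6 members, with isoforms of a median TPM under 1 pooled as all others. The noncoding Tpt1-204 is at 55.4 to 149.4 TPM beside 47.3 to 102.9 for the coding Tpt1-201.

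Nsa2 has coding isoforms of unequal length and unequal spread. The 974-base Nsa2-203 was read at 10.7 TPM in mouse 678, 7.65 in mouse 687, 4.32 in mouse 688, 4.44 in mouse 698, 7.49 in mouse 700 and 6.25 in mouse 703, a ratio of 2.47. The 2700-base Nsa2-201 ran from 3.71 to 5.25 TPM, a ratio of 1.42, and all 974 bases of Nsa2-203 are exonic in it too. The short over the long isoform ranged from 1.08 in mouse 688 to 2.24 in mouse 678. In Npm1 the isoforms 201 and 203 kept a closer ratio, with Npm1-203 at 0.465 to 0.643 of Npm1-201. Nap1l1 divided over 5 coding isoforms of a median TPM of at least 1, of which 4 lay between 10.7 and 17.0. Hnrnpa1-203, annotated for nonsense-mediated decay, was read at 5.10 to 9.19 TPM and was highest in mouse 698, where the coding Hnrnpa1-202 was second lowest at 37.3. Of the exonic bases of Hnrnpa1-203, 80.8% are also exonic in Hnrnpa1-202, so this division of reads too is an estimate of the model. Naca-202, the long form known from muscle, stayed at 0.26 to 0.42 TPM.

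Reads of members can be divided with retroposed pseudogene copies. Annotated pseudogene transcripts that match a member's coding sequence at 90% identity or more over at least 50% of it numbered 53 records for 7 members, 15 of them for Hnrnpa1 and 14 for Nsa2, and 0 for Rack1. Only 4 of the 53 held 10 or more counts in every library. The share of counts assigned to copies rather than to the member was largest for Nap1l1 at 5.75% to 6.48%, nearly all in Gm4204, at 5.26 to 7.22 TPM. It was 1.71% to 2.17% for Tpt1, 1.63% to 2.14% for Nsa2, 1.554% to 1.963% for Hnrnpa1 and at most 1.28% for Naca, Btf3 and Npm1. With the TPM of copies added, the ratio of highest to lowest library was 2.15 for Tpt1 and 1.25 for Nap1l1, beside 2.16 and 1.24 without. Values of members with close copies remain uncertain by such shares.

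Genes that overlap the members were read as well. On the opposite strand, Trim41 overlaps the end of Rack1 at 12.9 to 17.9 TPM, and Fam169a overlaps Nsa2 at 9.89 to 13.4 TPM. Gfm2, at 3.27 to 3.98 TPM, shares only the base at 97137937 on chromosome 13 with Nsa2. The labels name a directional library kit, while the sources used here give no strand setting for the counting. Small nucleolar RNAs inside Rack1 (Snord95, Snord96a and Gm25296) were listed at 0 in every library, Snora31 inside Tpt1 had at most 1 count, and Gm25117 inside Nap1l1 had 19 to 42 counts.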

How the data were processed

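Expected counts and TPM for each transcript were deposited per mouse by the authors, who trimmed reads with cutadapt and aligned and quantified them with STAR and RSEM on mm10, whose versions are not stated. The methods name a UCSC annotation, while the files list Ensembl transcript IDs. These were matched without version to GENCODE M21 (99.36% of 142351) and summed per gene, and 910 unmatched transcripts, with at most 0.272% of counts, were left out. The members and lists were chosen with earlier results of these data known. Of the value columns, 12 were used and 18 were not. Library totals were 34689262 to 44463362 expected counts, which were rounded for the filter of at least 10 in every library. Scaling used TMM in edgeR 4.0.16 (R 4.3.3), with DESeq2 1.42.0 size factors as an alternative. Excess SD over a running median on log2(CPM + 1) was ranked and the top 5% called most variable. This step was tried on simulated counts with a fixed spread between libraries, which need not match that of these data. Pseudogene transcripts were matched to coding sequences with blastn 2.17.0 (90% identity, 50% coverage). Named list genes were those with the highest median TPM, with the largest excess, or called most variable. Counting intervals at 95% treat reads as independent molecules and cover counting error only. The 12 labelled samples give genotypes, with 3 replicates each in 2 parts, but tie no mouse number to one, so no comparison of genotypes was made, and the only test is Dixon's for a library far from the others.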

Additional observations from a re-analysis of the deposited data

Results flagged for a closer look

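Btf3 had 1 library far from the others. Its TPM was 47.0 in mouse 688 and 53.5 to 57.3 in the other 5, and the gap below the nearest library took 0.629 of the whole range, past Dixon's 95% critical value for 6 samples. Chance passes that value in about 1 of 20 groups, and 8 genes were examined. In TMM-scaled CPM mouse 688 was not the lowest for Btf3, at 34.3 beside 33.5 in mouse 703.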

How the results depend on the processing

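The count of most variable members was 5, and it fell to 2 with a pseudocount of 0.25 and to 3 over log2(TPM + 1). It ranged from 3 to 5 with each library left out in turn, at 3 without mouse 678 and without mouse 688. It was 5 with DESeq2 size factors or with no filter on low counts, and 4 over protein-coding transcripts only. The highest over the lowest library for the summed share of TPM was 1.52, and 1.58 as a share of expected counts, with a range of 1.49 to 1.52 over libraries left out in turn. Mice 678, 687 and 700 were the 3 highest libraries for 5 members in TPM, and for 8 in TMM-scaled CPM and in TPM over nuclear protein-coding genes. An annotated TOP start was found in 2 members, in 4 with any annotated isoform and in 1 with at least 6 pyrimidines (1.18% of genes). With a run anywhere in the first 30 bases, chosen after seeing the data, it was 6, and 7 over any annotated isoform, where 73.9% of genes hold one. Pseudogene copies numbered 53 at 90% identity and 22 at 95%. The causes of these differences were not tested. The ratio of highest to lowest library moved outside its counting interval in 6 cases, for example from 1.91 in TPM to 1.66 in TMM-scaled CPM for Nsa2. No paired analysis was possible because the mouse numbers carry neither a group nor a replicate number. At the lowest depth, 453 counts for Nsa2, counting error alone spans 412 to 496.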
